A study of Mus musculus with 13 samples.

Results

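Receptors and effector enzymes of the mature neutrophil were examined in whole mouse bone marrow: the receptors Cxcr2, Csf3r, Fpr1 and Fpr2, the enzymes Padi4 and Mmp25, and the surface antigen Ly6g. The 7 genes are a list of names to which no cutoff on a measured value was applied, but which was chosen with earlier results of these data known. Each was read from the array row that carries its symbol. The rows of 4 of the 7 were found (Cxcr2, Csf3r, Padi4 and Mmp25), among 19505 symbols in all, while Fpr1, Fpr2 and Ly6g were not analysed here. All 4 passed the filter on low signals, with values above the array's median on each of the 13 arrays.

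RNA had been hybridised to 13 Affymetrix arrays, which report 1 brightness per gene on a log2 scale, so that a difference of log2 1 is a doubling. The 3 groups were named for their guides. In BRSST+sgEzh2 (4 arrays) the guide combination named BRSST was joined by a guide against Ezh2, the catalytic subunit of the histone H3 lysine 27 methyltransferase PRC2. BRSST+sgLuc (5 arrays) had the same combination with the control guide sgLuc, and the last group (4 arrays) had sgLuc alone. In every group the guides were delivered to LSK cells, the stem and progenitor fraction of marrow, of Cas9 knock-in mice, and these cells were given 24 h later to C57Bl/6J recipients irradiated with 7 Gy. Marrow was taken at leukemia or at 6 months. The sources used here do not say which samples had leukemia, which genes the name BRSST stands for, or what share of the marrow carried edits or came from the host. No source says that each array stands for a separate mouse, so p-values speak only to how much these arrays vary, and part of that may be technical. Apart from the replicate number, the labels give each sample a running number that is continuous over both BRSST groups and jumps before sgLuc. What it marks is not stated, and a difference between sgLuc and either BRSST group cannot be told apart from it.

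Neutrophils are the main product of the marrow. They carry the G-CSF receptor Csf3r, which drives granulocyte production and survival. As they mature they acquire Cxcr2, the receptor for chemokines such as Cxcl1 and Cxcl2 that draws mature cells out of the marrow into blood. Padi4 converts arginine to citrulline in histones and is needed for the release of neutrophil extracellular traps, and Mmp25 is a matrix metalloproteinase tethered to the leukocyte surface, known in human neutrophils as leukolysin. Csf3r and many other granulocyte genes are switched on by factors of the C/EBP family and by PU.1, the product of Spi1.

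The promoters of the 4 genes are shown because the 4 genes were lower together in BRSST+sgLuc marrow, as described below. Each line gives the 250 bases before the RefSeq transcription start in the direction of the gene, from the build GRCm38.p6. Capitals mark the letters GAGGAA, a core bound by PU.1, or their reverse complement TTCCTC. Cxcr2 is on the plus strand of chromosome 1 (chr1:74153744-74153993), Csf3r on the plus strand of chromosome 4 (chr4:126024409-126024658), Padi4 on the minus strand of chromosome 4 (chr4:140774204-140774453) and Mmp25 on the minus strand of chromosome 17 (chr17:23645270-23645519).
Cxcr2: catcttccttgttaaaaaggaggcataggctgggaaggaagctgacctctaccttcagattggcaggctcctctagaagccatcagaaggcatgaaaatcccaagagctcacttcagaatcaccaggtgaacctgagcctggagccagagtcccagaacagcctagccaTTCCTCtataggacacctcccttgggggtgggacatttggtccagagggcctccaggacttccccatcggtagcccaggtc
Csf3r: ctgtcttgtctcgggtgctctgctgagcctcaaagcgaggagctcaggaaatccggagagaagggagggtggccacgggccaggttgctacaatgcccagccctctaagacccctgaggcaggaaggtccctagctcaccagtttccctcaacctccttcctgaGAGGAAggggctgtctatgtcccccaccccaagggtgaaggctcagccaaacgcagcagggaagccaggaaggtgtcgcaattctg
Padi4: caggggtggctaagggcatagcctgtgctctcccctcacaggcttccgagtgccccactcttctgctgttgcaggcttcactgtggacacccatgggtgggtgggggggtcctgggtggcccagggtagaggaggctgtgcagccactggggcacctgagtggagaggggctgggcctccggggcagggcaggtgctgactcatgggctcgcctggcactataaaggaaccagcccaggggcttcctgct
Mmp25: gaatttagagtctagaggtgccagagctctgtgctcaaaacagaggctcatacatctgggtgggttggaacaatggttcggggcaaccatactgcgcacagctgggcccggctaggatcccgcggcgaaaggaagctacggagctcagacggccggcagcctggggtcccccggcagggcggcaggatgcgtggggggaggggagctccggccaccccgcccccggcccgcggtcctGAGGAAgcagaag
The letters GAGGAA, searched on both strands, occurred in 3 of the 4 windows and in 23.3% of 32851 RefSeq windows of the same length. They lay 86 to 81 bases before the start of Csf3r and 13 to 8 bases before that of Mmp25, and on the opposite strand 81 to 76 bases before the start of Cxcr2. The C/EBP core TTNNGNAA was in 0 of the 4 windows, against 36.8% of all windows. GC content was lowest for Cxcr2, at 54.4%, and highest for Padi4 and Mmp25, at 66.0% each, with a median of 52.4% over all windows. A match of letters is a description of the window and not a bound site.

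Across the series, array medians ran from log2 7.19 to 7.32. Ezh2, the targeted gene, was measured at log2 8.08 to 9.22 with the guide against it, 9.15 to 10.46 in BRSST+sgLuc and 9.94 to 10.55 in sgLuc, so the BRSST groups overlapped at their edge. The Y-linked genes read high in BRSST+sgEzh2 for 2 of 4 arrays, in BRSST+sgLuc for 2 of 5 and in sgLuc for 4 of 4. Of the markers listed for mature neutrophils, 9 of 9 lay above the array median on all 13 arrays. Their mean signal was log2 12.75 to 12.93 in BRSST+sgEzh2, 12.66 to 12.91 in BRSST+sgLuc and 12.99 to 13.14 in sgLuc. Most of them are genes of the secondary and tertiary granules (described below), which are switched on during maturation. They therefore do not single out fully mature cells. In whole marrow, fewer neutrophils and less RNA per neutrophil cannot be told apart, which holds for every value that follows.

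The 4 genes were among the brighter features of every array. Csf3r lay between the 97.6th and 99.6th percentile of an array's values, Cxcr2 between the 90.6th and 98.3rd, Padi4 between the 93.1st and 98.1st, and Mmp25 between the 68.7th and 92.3rd. Signals as near the top of the scale as those of Csf3r can be compressed, so that a difference is understated. Brightness depends on the probe, so the genes are compared across samples and not with each other.

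**Figure D1:**
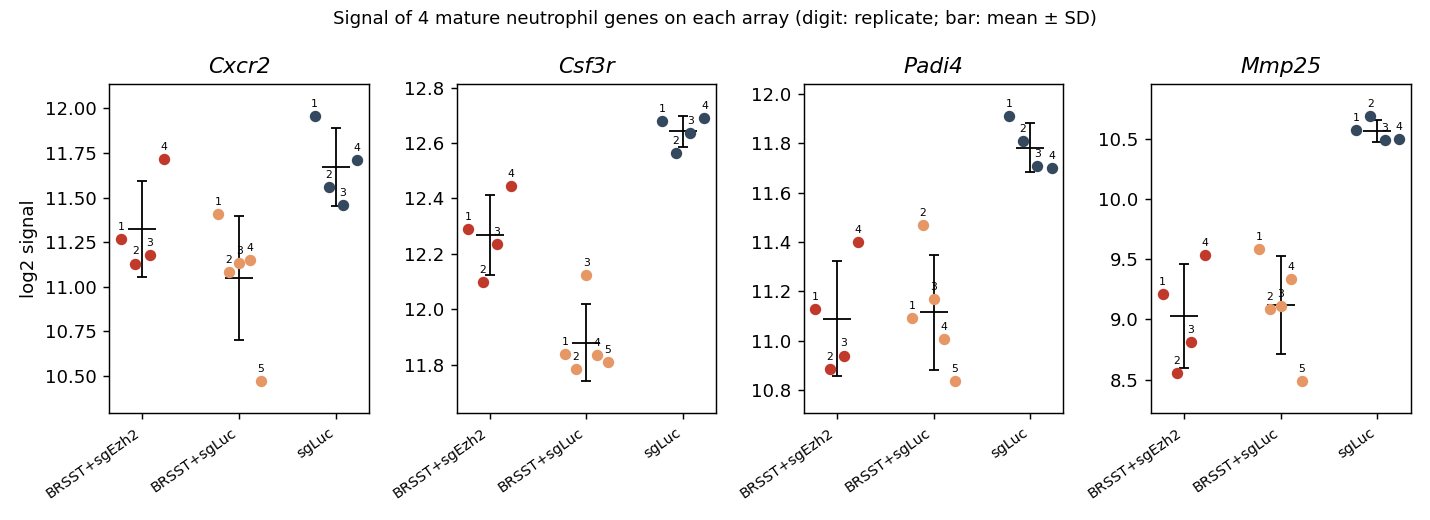
Log2 signal (vertical axis) of Cxcr2, Csf3r, Padi4 and Mmp25 on each of the 13 arrays, with 1 point per array, and the mean and SD of each group. For Csf3r, Padi4 and Mmp25 every sgLuc array lies above every array of both BRSST groups, and for Cxcr2 1 BRSST+sgEzh2 array reaches into the sgLuc range.

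All 4 genes were lower in BRSST+sgLuc than in sgLuc marrow, by 1.54-fold (Cxcr2) to 2.72-fold (Mmp25), and in each of them the arrays of the groups did not overlap. Of all 10601 genes tested, 11.7% were called lower in this comparison, and 9.82% were lower with no overlap of the groups. The median difference over the 4 was log2 -0.72, against 0.01 over all genes tested. Calls were made with limma at a Benjamini-Hochberg adjusted p of 0.05 over all genes tested.

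Csf3r read log2 11.84, 11.78, 12.12, 11.84 and 11.81 on the BRSST+sgLuc arrays, against 12.68, 12.56, 12.63 and 12.69 on the sgLuc arrays. The sgLuc arrays lay within 0.13 of each other, and 4 of the 5 BRSST+sgLuc arrays lay within 0.06, with replicate 3 above them. The difference was log2 -0.76 ± 0.10 (SE; limma adjusted p = 0.000304), a level 1.70-fold lower in BRSST+sgLuc. The SD of Csf3r over the 4 sgLuc arrays was 0.06, below that of most genes (7.44th percentile of the SDs of the genes tested). Cxcr2 read log2 11.41, 11.08, 11.13, 11.15 and 10.47 on the BRSST+sgLuc arrays, against 11.96, 11.56, 11.46 and 11.71 on the sgLuc arrays. Its groups were separated by a narrow gap, between 11.41 and 11.46, and replicate 5 of BRSST+sgLuc stood lowest. The difference was log2 -0.62 ± 0.18 (limma adjusted p = 0.0242). This call was lost without sgLuc replicate 1 (adjusted p = 0.0884) or sgLuc replicate 4 (0.0568), and the difference without BRSST+sgLuc replicates 2 and 5 together was log2 -0.44 (0.0589). It was also lost with the Y-linked class of the array as a block, at log2 -0.57 (0.0792), a class that was high on all 4 sgLuc arrays.

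The effector enzymes were lower as well. Padi4 read log2 11.09, 11.47, 11.17, 11.01 and 10.83 in BRSST+sgLuc, against 11.91, 11.81, 11.71 and 11.70 in sgLuc. Every BRSST+sgLuc array lay below every sgLuc array, replicate 2 of BRSST+sgLuc coming nearest. The difference was log2 -0.67 ± 0.14 (limma adjusted p = 0.0041), a level 1.59-fold lower. Mmp25 read log2 9.59, 9.09, 9.11, 9.34 and 8.48 in BRSST+sgLuc, against 10.58, 10.69, 10.49 and 10.50 in sgLuc. The gap between the groups, from 9.59 to 10.49, was the widest of the 4 genes in this comparison. Its difference was log2 -1.45 ± 0.21 (limma adjusted p = 0.000577). The calls of Csf3r, Padi4 and Mmp25 held in all 26 alternative settings, with differences of log2 -0.82 to -0.71 for Csf3r, -0.76 to -0.60 for Padi4 and -1.56 to -1.22 for Mmp25.

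In BRSST+sgEzh2 marrow 3 of the 4 genes were called lower than in sgLuc, against 3.86% of all genes tested, and the same 3 did not overlap with sgLuc, against 9.06% of all genes. This comparison and the last share the sgLuc arrays. Padi4 read log2 11.13, 10.89, 10.94 and 11.40 in BRSST+sgEzh2, all below its lowest sgLuc array at 11.70, and differed from sgLuc by log2 -0.69 ± 0.14 (limma adjusted p = 0.00839), a 1.62-fold lower level. Mmp25 read log2 9.22, 8.56, 8.81 and 9.53 in BRSST+sgEzh2, against a lowest sgLuc value of 10.49. Its difference was log2 -1.54 ± 0.23 (limma adjusted p = 0.00078), a 2.90-fold lower level. Both calls held in all 26 alternative settings, with log2 -0.80 to -0.63 for Padi4 and -1.70 to -1.38 for Mmp25.

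Of the receptors in the same comparison, Csf3r was called and Cxcr2 was not. Csf3r read log2 12.29, 12.10, 12.23 and 12.45, against a lowest sgLuc value of 12.56, so the groups did not overlap. The difference was log2 -0.37 ± 0.11 (limma adjusted p = 0.0438), a 1.30-fold lower level. That call was lost in 13 of the 26 alternative settings, 9 of which left out 1 array: BRSST+sgEzh2 replicates 1, 2 and 3, BRSST+sgLuc replicates 1 and 4, and each sgLuc replicate (adjusted p from 0.0572 to 0.138). Cxcr2 read log2 11.27, 11.13, 11.18 and 11.72 in BRSST+sgEzh2, and its replicate 4 lay within the sgLuc range of 11.46 to 11.96. Its difference of log2 -0.35 ± 0.19 did not pass (limma adjusted p = 0.286), with a 95% interval from log2 -0.76 to 0.06.

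BRSST+sgEzh2 set against BRSST+sgLuc shows the addition of the Ezh2 guide. Here 0 of the 4 genes passed the test, where 0.783% of all genes tested were called. All 4 genes overlapped between the groups, where 3.53% of all genes did not. Csf3r averaged log2 12.27 ± 0.14 in BRSST+sgEzh2 (SD, n = 4) and 11.88 ± 0.14 in BRSST+sgLuc (SD, n = 5). Apart from BRSST+sgLuc replicate 3 at 12.12, no BRSST+sgLuc array reached the lowest BRSST+sgEzh2 value of 12.10. The difference was log2 0.39 ± 0.10 (95% interval 0.17 to 0.61; limma adjusted p = 0.0948), and it passed without BRSST+sgLuc replicate 3, at log2 0.45 (adjusted p = 0.0251). Cxcr2 averaged log2 11.32 ± 0.27 in BRSST+sgEzh2 and 11.05 ± 0.35 in BRSST+sgLuc, a difference of log2 0.27 with an interval from -0.11 to 0.66 (adjusted p = 0.542). That difference was log2 0.13 without BRSST+sgLuc replicate 5, 0.14 without BRSST+sgEzh2 replicate 4, 0.09 without BRSST+sgLuc replicates 2 and 5 together and 0.05 with array quality weights.

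The effectors had nearly equal means in the BRSST groups. Padi4 averaged log2 11.09 ± 0.23 in BRSST+sgEzh2 and 11.11 ± 0.23 in BRSST+sgLuc, and the interval of the difference ran from log2 -0.32 to 0.27 (limma adjusted p = 0.955). Mmp25 averaged log2 9.03 ± 0.43 in BRSST+sgEzh2 and 9.12 ± 0.41 in BRSST+sgLuc, with an interval from log2 -0.55 to 0.37 (adjusted p = 0.894). Differences anywhere within these intervals remain compatible with the values at this number of arrays.

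**Figure D2:**
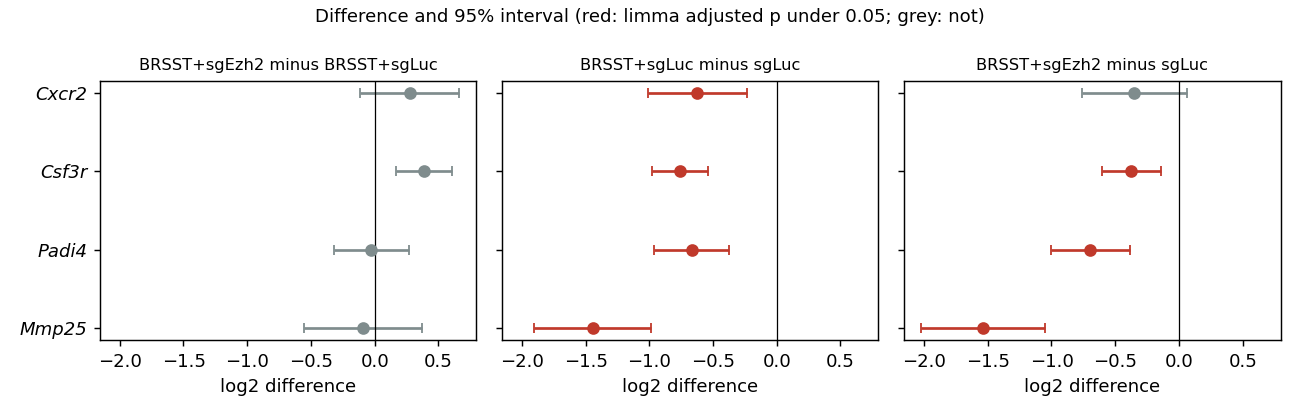
Difference in log2 signal (horizontal axis) for each of the 4 genes in the 3 comparisons, with points for the difference and bars for its 95% interval from limma, red where the gene was called and grey otherwise. The intervals of Padi4 and Mmp25 lie below 0 in both comparisons with sgLuc and span 0 between the BRSST groups, while that of Csf3r lies above 0 between the BRSST groups (0.17 to 0.61) without passing adjustment.

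Receptors and enzymes were also set against each other within each array, a measure chosen after the values were seen and given without a test. The mean of Cxcr2 and Csf3r minus the mean of Padi4 and Mmp25 was log2 1.61 to 1.89 in BRSST+sgEzh2, 1.16 to 1.49 in BRSST+sgLuc and 0.81 to 1.10 in sgLuc. The 3 ranges did not overlap. How many other contrasts would also separate the groups was not examined. Its absolute size depends on the probes and has no meaning. Compression of bright signals such as Csf3r can also shift its differences between groups. Between BRSST+sgLuc and sgLuc, Mmp25 differed by log2 -1.45, against -0.62 for Cxcr2, -0.67 for Padi4 and -0.76 for Csf3r. Csf3r minus Padi4 alone was log2 1.05 to 1.30 in BRSST+sgEzh2, 0.32 to 0.98 in BRSST+sgLuc and 0.75 to 0.99 in sgLuc, so here BRSST+sgEzh2 stood apart and the others overlapped.

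Single arrays were high or low for several of the genes together. Within BRSST+sgEzh2, replicate 4 was the highest and replicate 2 the lowest for each of the 4 genes. In BRSST+sgLuc, replicate 5 was the lowest of all 13 arrays for Cxcr2, Padi4 and Mmp25, while for Csf3r the lowest was replicate 2. Replicate 2 was in turn the highest of its group for Padi4 at log2 11.47. The spread of Mmp25 within the BRSST groups (SD 0.43 in BRSST+sgEzh2 and 0.41 in BRSST+sgLuc) was larger than its SD of 0.09 in sgLuc.

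The likeness of profiles was measured as the root mean square (RMS) distance between log2 profiles over the 13 arrays, each centred on its own mean. It includes the differences between groups, and all genes share the arrays. Cxcr2 and Csf3r were 0.23 apart, Cxcr2 and Padi4 0.24, and Csf3r and Padi4 0.24, while Mmp25 was 0.45 to 0.54 from each of them. Ranked by nearness among all genes tested, Csf3r was number 67 and Padi4 number 98 from Cxcr2, and Padi4 number 550 from Csf3r. Mmp25 was number 7853 from Cxcr2, 8774 from Csf3r and 5337 from Padi4. The genes nearest to Csf3r were Mfsd14b and Ampd3, an AMP deaminase (both 0.09), and those nearest to Padi4 were Entpd1, an ectonucleotidase also known as CD39 (0.09), and Kbtbd7 (0.11). Nearest to Cxcr2 were Lins1 and Pi16 (both 0.14). Mmp25 had Cdh1, which encodes E-cadherin (0.23), and Plau, the urokinase plasminogen activator (0.28), as its nearest genes. Genes with provisional symbols, such as Gm or Rik names, and small RNA genes were left out of the nearest genes and of the medians. Over the tested genes that were kept, the median distance was 0.41 for Csf3r, 0.45 for Padi4, 0.44 for Cxcr2 and 0.80 for Mmp25. The mean profile of the 4 genes lay nearest to Cmpk2 (0.14), followed by Rgs3, Rasgrp4, Entpd1, Smpdl3b, Clec5a, Ptprc and Niban1 (up to 0.18), against a median of 0.49. Ptprc, the common leukocyte antigen CD45, was lower in both BRSST groups, with log2 -0.63 ± 0.10 for BRSST+sgEzh2 minus sgLuc (limma adjusted p = 0.00145) and -0.84 ± 0.09 for BRSST+sgLuc minus sgLuc (7.91e-05).

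Close relatives and ligands of the 4 genes were read next. Cxcr1, the neighbouring chemokine receptor gene, had log2 7.39 to 8.13 in BRSST+sgLuc and 8.34 to 9.06 in sgLuc, a fall of log2 -0.80 ± 0.18 (limma adjusted p = 0.00612). Of the 5 listed ligands of Cxcr2, Cxcl2 and Cxcl3 were tested. Cxcl2 ran the other way from its receptor: it read log2 8.39 to 10.37 in BRSST+sgLuc and 7.56 to 8.39 in sgLuc, a rise of log2 1.60 ± 0.35 (adjusted p = 0.00613) that held with each array left out. In BRSST+sgEzh2 Cxcl2 read log2 8.59 to 8.99, and its difference from sgLuc was 0.91 (adjusted p = 0.148). Cxcl1 and Cxcl5 lay below the array median on every array. Padi2, another deiminase, had log2 9.18 to 9.93 in BRSST+sgEzh2, 6.52 to 9.29 in BRSST+sgLuc and 10.48 to 10.79 in sgLuc. It fell in BRSST+sgLuc against sgLuc, by log2 -2.88 ± 0.45 (adjusted p = 0.000836). Its difference between BRSST+sgEzh2 and BRSST+sgLuc was log2 1.73 ± 0.45 (adjusted p = 0.0911) and passed without BRSST+sgLuc replicate 2 or replicate 3, and that between BRSST+sgEzh2 and sgLuc was -1.14 ± 0.48 (0.156). Padi1, Padi3 and Padi6 were below the median on every array, as were the formyl peptide receptor relatives Fpr-rs3, Fpr-rs4 and Fpr-rs6. All 3 tested metalloproteinases fell in BRSST+sgLuc against sgLuc, where 11.7% of all genes tested fell and 10.8% rose. Beside Mmp25, Mmp8 (neutrophil collagenase) fell by log2 -0.76 ± 0.17 (limma adjusted p = 0.00696) and Mmp9 (gelatinase B) by -0.50 ± 0.15 (0.031). The call of Mmp9 was lost without BRSST+sgLuc replicates 1 or 4 or sgLuc replicates 1, 2 or 3. In BRSST+sgEzh2 against sgLuc, where 3.86% of all genes fell, Mmp25 alone of these metalloproteinases fell. Of 5 tested genes of the Ly6 cluster, Ly6d, a marker of lymphoid progenitors, and Ly6f fell in BRSST+sgLuc against sgLuc. Their differences were log2 -2.83 ± 0.69 (limma adjusted p = 0.0105) and -0.53 ± 0.13 (0.00929), and these 2 became 4 without BRSST+sgLuc replicate 2. Both also fell in BRSST+sgEzh2 against sgLuc, Ly6d by -2.88 ± 0.73 (0.0242, lost without 6 of the 13 single arrays) and Ly6f by -0.65 ± 0.13 (0.00781).

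Of 27 other genes of mature neutrophils that were tested, 9 fell and 1 rose in BRSST+sgLuc against sgLuc, with a median of log2 -0.26, where 11.7% of all genes fell and 10.8% rose. The falls were led by Ptafr, the receptor for platelet-activating factor (log2 -1.13 ± 0.16, limma adjusted p = 0.000405), Arg2, the mitochondrial arginase (-0.92 ± 0.18, 0.00287), and Cxcr1, and Itgam, the CD11b integrin chain, fell by -0.70 ± 0.12 (0.00162). The gene that rose was Asprv1, an aspartic protease (1.5 ± 0.42, 0.0217, lost without BRSST+sgLuc replicates 1 or 4 or sgLuc replicates 1, 2 or 3). In BRSST+sgEzh2 against sgLuc 8 fell and 1 rose, with a median of log2 -0.19, where 3.86% of all genes fell and 5.51% rose. Hdc, the histidine decarboxylase, fell by log2 -1.13 ± 0.17 (adjusted p = 0.000821) and Clec4e, the receptor Mincle, by -0.96 ± 0.15 (0.00113). Arg2 fell by -0.84 ± 0.19 (0.0124, lost without sgLuc replicate 1), and the gene that rose was again Asprv1 (1.89 ± 0.45, 0.0174, lost without BRSST+sgEzh2 replicate 1 or sgLuc replicate 2). The 8 falls became 3 without sgLuc replicate 1, 4 without BRSST+sgEzh2 replicate 1 or 2 or sgLuc replicate 2, and 5 without BRSST+sgEzh2 replicate 3 or sgLuc replicate 3. The 9 falls of the other comparison ranged from 6 to 10 with 1 array left out.

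**Figure D3:**
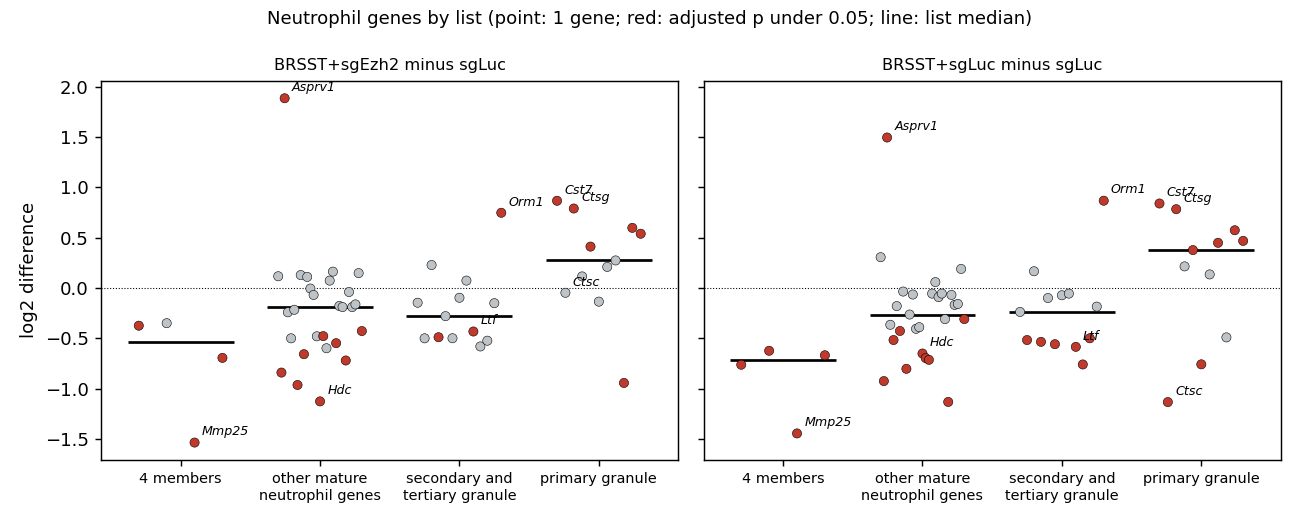
Difference in log2 signal from sgLuc (vertical axis) for each tested gene of the 4 members and of neutrophil gene groups, with 1 point per gene, red where limma called it and grey otherwise, and a line at each group's median. The left panel shows BRSST+sgEzh2 minus sgLuc and the right panel BRSST+sgLuc minus sgLuc. Called genes of the primary granule group lie mostly above 0 and those of the mature and later granule groups mostly below.

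Granule genes are switched on at successive stages of neutrophil maturation. Of 13 tested genes of the secondary and tertiary granules, which fill late, 6 fell and 1 rose in BRSST+sgLuc against sgLuc (median log2 -0.24), where 11.7% of all genes fell and 10.8% rose. Mmp8 is described above, Ltf (lactoferrin) fell by log2 -0.58 ± 0.10 (limma adjusted p = 0.00118), and Orm1, an acute phase glycoprotein, rose by 0.87 ± 0.11 (0.000227). The 6 falls became 3 without BRSST+sgLuc replicate 4 or sgLuc replicate 1 or 2. In BRSST+sgEzh2 against sgLuc, 2 of these 13 fell and 1 rose (median log2 -0.28), against 3.86% and 5.51% of all genes. Those 2 falls became 5 without BRSST+sgEzh2 replicate 4, 4 without BRSST+sgLuc replicate 5 and 1 without BRSST+sgEzh2 replicate 2 or sgLuc replicate 1 or 2. The falls were Cybb, a subunit of the NADPH oxidase (-0.49 ± 0.10, 0.00862), and Ltf (-0.43 ± 0.10, 0.0168, lost without BRSST+sgEzh2 replicate 2 or sgLuc replicates 1 or 2), and Orm1 rose (0.75 ± 0.12, 0.00131).

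Of 11 tested genes of the primary granules, which fill at the promyelocyte stage, 6 rose and 2 fell in BRSST+sgLuc against sgLuc, with a median of log2 0.38. Over all genes 10.8% rose and 11.7% fell. Ctsg, the serine protease cathepsin G, read log2 12.46 to 12.59 in BRSST+sgLuc and 11.65 to 11.80 in sgLuc, a rise of 0.78 ± 0.10 (limma adjusted p = 0.000177). Cst7, the protease inhibitor cystatin F, rose by 0.84 ± 0.13 (0.000882). The 2 that fell, Ctsc (-1.13 ± 0.25, 0.00554), which activates granule proteases, and Lyz2 (-0.76 ± 0.21, 0.0206), the lysozyme, are also expressed by macrophages. The call of Lyz2 was lost without BRSST+sgLuc replicate 1 or 4 or sgLuc replicate 1, and the 6 rises became 3 without sgLuc replicate 1. In BRSST+sgEzh2 against sgLuc 5 rose and 1 fell, with a median of log2 0.27, where 5.51% of all genes rose and 3.86% fell. Ctsg rose by 0.79 ± 0.10 (adjusted p = 0.000292) and Cst7 by 0.87 ± 0.14 (0.00168). The gene that fell was Nkg7, which T and NK cells also express (-0.94 ± 0.25, 0.0325, lost without any 1 sgLuc array or BRSST+sgEzh2 replicates 1 or 4). Gfi1, which encodes a transcription factor and no granule protein, is counted among the rises of both comparisons. These 5 rises became 2 without sgLuc replicate 1 and 3 without BRSST+sgEzh2 replicates 1, 2 or 3 or sgLuc replicates 2 or 4.

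**Figure D4:**
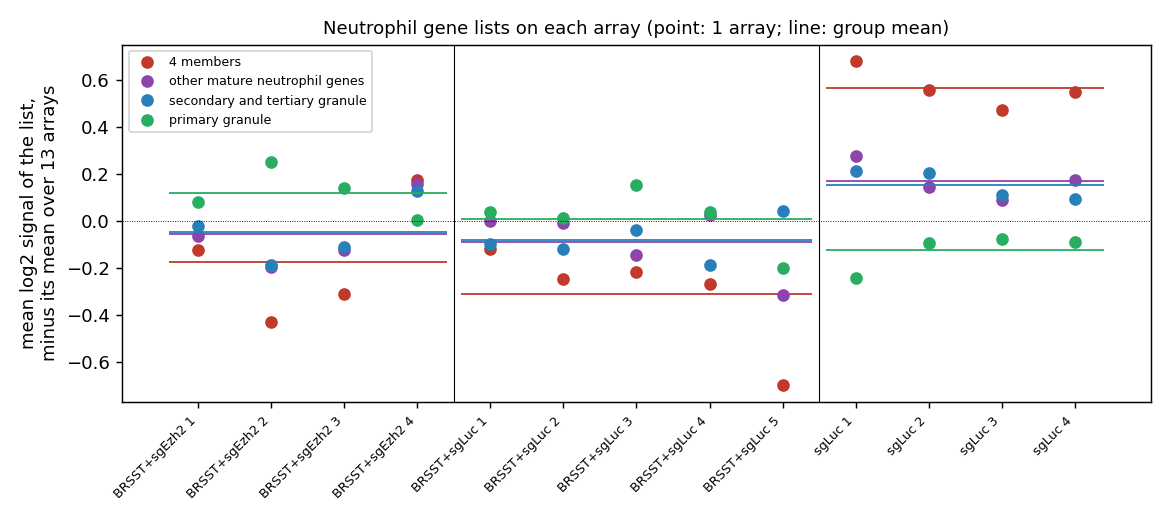
Mean log2 signal of 4 gene groups on each array, each centred on its mean over the 13 arrays (vertical axis), with arrays grouped as BRSST+sgEzh2, BRSST+sgLuc and sgLuc. The mean of the 4 members is higher on every sgLuc array (uncentred, log2 11.57 to 11.78) than on any BRSST+sgEzh2 (10.67 to 11.27) or BRSST+sgLuc array (10.40 to 10.98).

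For the lists that follow, the shares over all genes were 11.7% lower and 10.8% higher in BRSST+sgLuc against sgLuc, and 3.86% lower and 5.51% higher in BRSST+sgEzh2 against sgLuc. Downstream of the receptors, 4 of 13 tested genes of G-CSF receptor signalling fell in BRSST+sgLuc against sgLuc: Csf3r itself, Syk (log2 -0.46, limma adjusted p = 0.0205, lost without sgLuc replicate 1), Ptpn6 (-0.50, 0.0278, lost without BRSST+sgLuc replicate 1 or sgLuc replicates 1, 3 or 4) and Grb2 (-0.41, 0.0327, lost without BRSST+sgLuc replicates 2 or 4 or sgLuc replicates 1, 2 or 4). These 4 falls became 1 without sgLuc replicate 1 and 2 without sgLuc replicate 4. In BRSST+sgEzh2 against sgLuc Csf3r alone fell among the 13. Of 12 tested genes that couple chemoattractant receptors to movement, 5 fell in BRSST+sgLuc against sgLuc and 0 in BRSST+sgEzh2 against sgLuc (1 without BRSST+sgLuc replicate 5). The 5 became 2 without sgLuc replicate 1 and 3 without BRSST+sgLuc replicates 1 or 4 or sgLuc replicates 2, 3 or 4. Dock2, a Rac activator (log2 -0.63 ± 0.16, adjusted p = 0.0113), and Hcls1, an actin regulator (-0.41 ± 0.10, 0.0113), kept their calls with each array left out. Pik3cg, a PI3 kinase subunit (-0.73, 0.0279), Prex1, another Rac activator (-0.59, 0.0401), and Plcb2 (-0.37, 0.016) lost theirs without sgLuc replicate 1, and in all Pik3cg lost its call without 6 and Prex1 without 8 of the 13 single arrays. Of 5 tested NADPH oxidase genes, Ncf1 (-0.66 ± 0.15, 0.00849), Cybb (-0.53 ± 0.10, 0.002) and Rac2 (-0.28, 0.0245, lost without BRSST+sgLuc replicates 1 or 4 or sgLuc replicates 1, 2 or 3) fell in BRSST+sgLuc against sgLuc.

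The granulocyte transcription factors held 11 tested genes, of which 3 fell and 1 rose in BRSST+sgLuc against sgLuc. Irf8, which favours monocytes and dendritic cells over granulocytes, fell by log2 -1.23 ± 0.21 (limma adjusted p = 0.00144) and Lef1, also a lymphoid factor, by -1.58 ± 0.27 (0.00157). Gfi1, a repressor needed for granulocyte differentiation, rose by 0.38 ± 0.10 (0.0195, lost without sgLuc replicates 1, 2 or 4). In BRSST+sgEzh2 against sgLuc, Lef1 fell by -1.09 ± 0.29 (0.0314) and Gfi1 rose by 0.41 ± 0.11 (0.0324), calls that were lost without 5 and 6 of the 13 single arrays. Spi1, Cebpa and Cebpe passed in 0 of the 3 comparisons. The mean of Spi1 was log2 12.56 in BRSST+sgEzh2, 12.55 in BRSST+sgLuc, and for sgLuc 12.60.

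With the Ezh2 guide added, BRSST+sgEzh2 against BRSST+sgLuc, 0 genes of these neutrophil groups were called, where 0.783% of all genes tested were called. The smallest p-values were those of Ctsc (log2 1.09 ± 0.25, limma adjusted p = 0.0553) and Lyz2 (0.62 ± 0.21, 0.206) among primary granule genes, and of Clec4e (-0.54 ± 0.14, 0.094) and Mxd1 (-0.46 ± 0.14, 0.156) among mature neutrophil genes. Ctsc passed without BRSST+sgLuc replicate 2 or 3, Lyz2 without BRSST+sgLuc replicate 2 (adjusted p = 0.0282) and Clec4e without BRSST+sgLuc replicate 3 (0.0313). With 1 array left out, up to 2 primary granule genes were called higher and up to 2 other mature neutrophil genes lower. Up to 1 gene each of the transcription factors, the deiminases and G-CSF receptor signalling was called higher.

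Markers of other cells moved with the same groups, and their part in the results on neutrophil genes was not tested. Of B lineage markers, 8 of 9 tested fell in BRSST+sgLuc against sgLuc and 2 of 9 in BRSST+sgEzh2 against sgLuc, with a mean signal per array of log2 7.08 to 9.16 in BRSST+sgEzh2, 6.97 to 8.80 in BRSST+sgLuc and 9.31 to 10.58 in sgLuc. Of T and NK cell markers, 7 of 8 fell in BRSST+sgLuc against sgLuc and 0 of 8 in BRSST+sgEzh2 against sgLuc. Their mean was log2 6.29 to 8.41 in BRSST+sgEzh2, 6.30 to 7.58 in BRSST+sgLuc and 8.14 to 8.53 in sgLuc. Monocyte and macrophage markers read log2 9.08 to 9.87 in BRSST+sgEzh2, 8.48 to 9.57 in BRSST+sgLuc and 9.74 to 9.94 in sgLuc. Of these markers, 4 of 10 fell in BRSST+sgLuc against sgLuc and 2 of 10 in BRSST+sgEzh2 against sgLuc. In BRSST+sgEzh2 against BRSST+sgLuc, where Csf3r, Ctsc and Lyz2 had positive differences, 1 of the 10 monocyte and macrophage markers was called higher (Mpeg1, log2 1.38 ± 0.28, limma adjusted p = 0.0371) and their median difference was log2 0.72. In that comparison 1 of 3 eosinophil markers was called higher (Siglecf, log2 0.97 ± 0.21, 0.0472), and none of the B lineage, T and NK cell or erythroid markers was called, with medians of log2 0.82, 0.99 and -0.89. Over all genes tested, 0.67% were called higher and 0.113% lower between the BRSST groups. Erythroid markers went the other way, with 4 of 8 higher in BRSST+sgLuc than in sgLuc and a mean of log2 7.22 to 7.99 in BRSST+sgEzh2, 7.93 to 8.87 in BRSST+sgLuc and 7.18 to 7.66 in sgLuc. The highest erythroid mean was that of BRSST+sgLuc replicate 3, the array with the highest Csf3r of its group. That array also had its group's highest mean of monocyte and macrophage markers (log2 9.57) and of primary granule genes (11.62). Its means of B lineage (7.43) and T and NK cell markers (6.37) lay below those of replicate 2 (8.80 and 7.58). Replicate 2 had a monocyte and macrophage mean of log2 9.46, near that of replicate 3, and the lowest Csf3r of all 13 arrays (11.78). Basophil and mast cell markers read log2 7.49 to 8.42 in BRSST+sgEzh2, 7.52 to 7.83 in BRSST+sgLuc and 9.53 to 10.14 in sgLuc, and dendritic cell markers 6.53 to 6.94 in BRSST+sgEzh2, 6.28 to 7.79 in BRSST+sgLuc and 8.27 to 8.64 in sgLuc. The measured markers that lay below the array median on every array were the dendritic cell receptor Xcr1, Ccr3 (eosinophil), Vwf (megakaryocyte), and Mecom and Procr (progenitor). The B lineage, T and NK cell, monocyte and macrophage, erythroid, and basophil and mast cell lists had 0 such markers. Eosinophil, megakaryocyte and progenitor markers had 2, 1 and 1 lower calls in BRSST+sgLuc against sgLuc among 3, 4 and 5 tested. Of the 9 markers listed for mature neutrophils, 3 fell in BRSST+sgLuc against sgLuc (median log2 -0.18) and 1 of 9 in BRSST+sgEzh2 against sgLuc (-0.16). These 9 genes are also counted in the lists of granule and other mature neutrophil genes above. Their signals lay near the top of the scale, where a difference can be understated.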

How the data were processed

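Each array's deposited values are log2 signals made by the authors with oligo in R 3.5.01, per the submitters' processing notes. The sources used here do not give the background correction or the normalization. The log2 scale was read from the values (3.23 to 13.75). Per the labels' protocols, 2 ng of RNA was amplified with 10 PCR cycles, which can distort differences. Precision is limited by the number of arrays, which have no read depth.

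The platform annotation gave 1 symbol to 19572 of 22203 rows and none to 2631, with several for 0 rows, and 0 symbols changed when updated by Entrez number. For the 55 of 19505 symbols with several rows the row of highest mean was taken. Genes above their array's median on at least 4 arrays were tested (10601). Differences came from limma 3.58.1 (R 4.3.3), with lmFit and eBayes in 1 fit of 13 arrays and no covariate, and adjusted by Benjamini-Hochberg over the genes tested, at 0.05; every adjusted p is limma's. Figures used matplotlib 3.10.9. The procedure was tested on simulated data.

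Members and gene lists were chosen with earlier results of these data known. The genes named are the members, up to 4 called members of each list with the largest difference (or the 2 with the smallest p), the 2 genes nearest to each member and the 8 nearest to their mean profile; Ezh2, the markers and Spi1, Cebpa, Cebpe, Cxcl3 and Plcb2 are given for context. The search for nearest genes and the median distances passed over small RNA genes and genes with provisional symbols. Lists are described by counts and medians. Promoters are RefSeq windows of GRCm38.p6. Alternatives were no filter, a filter at the 0.75 quantile, equal medians, quantile normalization, averaging a gene's rows, array quality weights, trended variance (also robust), a replicate block, fits of only the groups compared, a threshold of 0.01, the Y-linked class as a block, a fit without BRSST+sgLuc replicates 2 and 5, which stood apart in earlier work, and each array left out in turn. Counts of called list genes under the same settings were added after seeing the data.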

Additional observations from a re-analysis of the deposited data

Results flagged for a closer look

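Csf3r on BRSST+sgLuc replicate 3, at log2 12.12, lay far above the other 4 arrays of its group, the nearest of which was at 11.84. The gap made up 0.838 of the group's range, beyond Dixon's 95% critical value of 0.71 for 5 samples. Of 12 combinations of gene and group examined, 1 was so marked, and chance marks about 1 in 20. Without this array the Csf3r difference between BRSST+sgEzh2 and BRSST+sgLuc was log2 0.45 (limma adjusted p = 0.0251).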

How the results depend on the processing

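Of 78 counts of members called under an alternative, 74 stayed within 1.5 times the count reported. The exceptions concern BRSST+sgEzh2 against BRSST+sgLuc, where the count was 1 instead of 0, the gene being Csf3r, with trended variance, with trended and robust variance, with array quality weights and without BRSST+sgLuc replicate 3 (0 to 1 with 1 array left out). Leaving out 1 array gave 3 to 4 members for BRSST+sgLuc against sgLuc and 2 to 3 for BRSST+sgEzh2 against sgLuc. Between the BRSST groups the uncalled differences of Padi4 (log2 -0.13 to 0.063) and Mmp25 (log2 -0.26 to 0.066) changed sign with 1 array left out. With the replicate block the counts were 0, 4 and 2 members called (BRSST groups against each other, BRSST+sgLuc against sgLuc, then BRSST+sgEzh2 against sgLuc), Csf3r losing its call in the last (adjusted p = 0.0561). The fit takes up replicate 5, which only BRSST+sgLuc has. The deviations of same-numbered arrays had correlations from -0.176 to 0.192, over 0.1 in 4 of 12 pairs, of which 3 were among the 4 pairs of BRSST+sgEzh2 and sgLuc, where the other was -0.114. As not every pair was over 0.1, the numbers were not taken to pair the samples. Csf3r also lost that call with no filter (0.0586), with equal medians (0.0663) and at a threshold of 0.01, and Cxcr2 lost its call in BRSST+sgLuc against sgLuc with the Y-linked class as a block (0.0792) and at 0.01. Cxcr2 gained a call in BRSST+sgEzh2 against sgLuc with array quality weights (log2 -0.45, 0.0317). Over all genes, the reported fits called 83, 2389 and 993 genes in the 3 comparisons in the same order, and alternatives called 17 to 1039, 1102 to 4879 and 398 to 2976. The causes were not tested.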
